A study of Sus scrofa with 40 samples.

Results

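Backfat is fat tissue, but part of the backfat samples in this series gave strong signal for genes of skeletal muscle fibres. The genes described are those of the contractile apparatus and its close partners: probe sets with exactly 1 gene symbol on the platform whose symbol belongs to the myosin heavy or light chains, myosin-binding protein C, myozenin, myomesin, troponin, tropomyosin, alpha-actinin or calsequestrin families, together with CKM, TTN, NEB, DES, PYGM, ENO3 and ATP2A1. The rule used names only and no measured value. It also asked for ACTA1, the skeletal actin, and MB, myoglobin, for which no probe set with exactly 1 symbol was found. Its light chain names took in MYLK, a kinase of that chain. In all, the rule took 58 probe sets of 38 genes out of 23999 probe sets, of which 10069 carried 1 symbol, for 6765 symbols. Sorting by known role gave 8 genes of fast fibres (9 probe sets), 10 genes of slow fibres or heart (11 probe sets), 1 gene of developing and atrial muscle, MYL4, 8 genes found in all striated muscle (13 probe sets), 4 genes shared by several kinds of muscle (12 probe sets), 2 smooth muscle genes and 5 genes of non-muscle cells (10 probe sets). The 4 striated classes together held 27 genes on 34 probe sets.

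The series used 20 prepubertal Yorkshire gilts aged 6 months from 2 lines, of low and of high residual feed intake, here RFI, which is intake in excess of what a pig's growth and upkeep call for; the low line is thus the more efficient one. Only heterozygous carriers of an MC4R variant entered the experiment. The 4 groups were low RFI restricted, low RFI ad libitum, high RFI restricted and high RFI ad libitum, with 5 pigs each; restricted pigs received 80% of maintenance feed for 8 days. Liver and backfat of these groups were hybridised to 1-colour Affymetrix porcine arrays, 20 arrays per tissue, and arrays are called here by group and by the number from 1 to 5 in their titles.

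In a muscle fibre, myosin heavy chains with their light chains form the thick filament, and actin with tropomyosin and the troponin complex forms the thin filament. Calcium released from the sarcoplasmic reticulum binds troponin C and lets myosin pull on actin, and a calcium pump ends the contraction. Fast and slow fibres build this machinery from different genes, and heart shares many of its genes with slow fibres. Adipocytes and blood vessels carry non-muscle and smooth muscle paralogs, so the same families are present in fat without any striated muscle. In pigs the back muscles lie directly under the backfat.

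Values are linear intensities as deposited. A probe set counted as over background on an array when it exceeded the 40th percentile of that array, which lay between 91.5 and 119 on the backfat arrays. Of the adipocyte markers, ADIPOQ, the hormone adiponectin, lay between 18513 and 32522, and FABP4, a fatty acid carrier of adipocytes, between 16368 and 23074, over the 20 backfat arrays. Of the 11 adipocyte markers tested, 6 were lowest of the 20 arrays on low RFI restricted array 1, the array on which 14 of 23 striated genes were brightest: LIPE, the hormone-sensitive lipase, with 2258, PPARG, the transcription factor of fat cell formation, with 2086, and CIDEA, LPL, DGAT2 and PNPLA2. The mean log2 intensity of the 11 markers was 11.65 there, against 12.15 to 12.70 on the other 19 arrays, and its part in the results for that array was not tested. Low RFI restricted array 5 stood apart in the mean log2 intensity of 17 hepatocyte markers, at 11.53 against 4.84 to 7.73 on the other 19 backfat arrays. Not every marker was high there: the lowest of the 17 was at 41.6, under background. With bulk RNA, fewer fibres in a sample and less RNA per fibre cannot be told apart, and the presence of fibres itself was not tested.

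The fast fibre genes varied widely between single backfat pigs, and did so together. MYL1, the fast alkali light chain of myosin, had intensities of 18941, 2922, 1775, 13359.8 and 29.5 on the low RFI restricted arrays, 186, 17789.9, 11115, 19193 and 41.7 on the low RFI ad libitum arrays, 3409, 254, 54.8, 4898 and 145 on the high RFI restricted arrays and 95.7, 58.3, 1776, 1552 and 519 on the high RFI ad libitum arrays. The high arrays were numbers 1 and 4 of the low RFI restricted group and 2, 3 and 4 of the low RFI ad libitum group, whereas low RFI restricted array 5 and low RFI ad libitum array 5 lay below 50, under the background threshold. MYH2, the heavy chain of fast oxidative fibres, had 3609, 461, 232, 9165 and 21.4 on the low RFI restricted arrays, 108, 14539, 3683, 16265 and 14.3 on the low RFI ad libitum arrays, 1609, 133, 28.5, 669 and 87.2 on the high RFI restricted arrays and 63.9, 23.2, 1589, 924 and 57.2 on the high RFI ad libitum arrays. Its brightest arrays were low RFI ad libitum 4 and 2, and low RFI ad libitum array 5 had the lowest value of all 20.

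TNNC2, the fast calcium sensor troponin C, was at 16560.3, 2397, 2079.9, 11392 and 39.8 on the low RFI restricted arrays, 226, 12769, 7456, 16321 and 24.1 on the low RFI ad libitum arrays, 2352, 203, 6.26, 4074 and 129 on the high RFI restricted arrays and 101, 85.9, 1119, 1196 and 311 on the high RFI ad libitum arrays. TNNI2, the fast inhibitory troponin subunit, was at 4148, 497, 539.8, 3508 and 6.83 on the low RFI restricted arrays, 6.2, 3966, 2493, 6291 and 3.85 on the low RFI ad libitum arrays, 388, 14.2, 5.48, 1225 and 12.9 on the high RFI restricted arrays and 7.31, 4.47, 345, 360.2 and 44.9 on the high RFI ad libitum arrays. Both genes had their 6 highest values on the same arrays: low RFI restricted 1 and 4, low RFI ad libitum 2, 3 and 4 and high RFI restricted 4. The remaining fast genes were MYLPF (the fast regulatory light chain), TNNT3 (fast troponin T), MYOZ1 (a Z-disc protein of fast fibres) and ATP2A1 (the calcium pump of fast fibres). On low RFI ad libitum array 4 they reached 15708, 5144, 3599.8 and 1364, and on low RFI ad libitum array 5 they were at 28.3, 72.2, 52 and 39.5. Of the 8 fast genes, 7 were brightest on low RFI ad libitum array 4, and TNNC2 was brightest on low RFI restricted array 1.

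**Figure D1:**
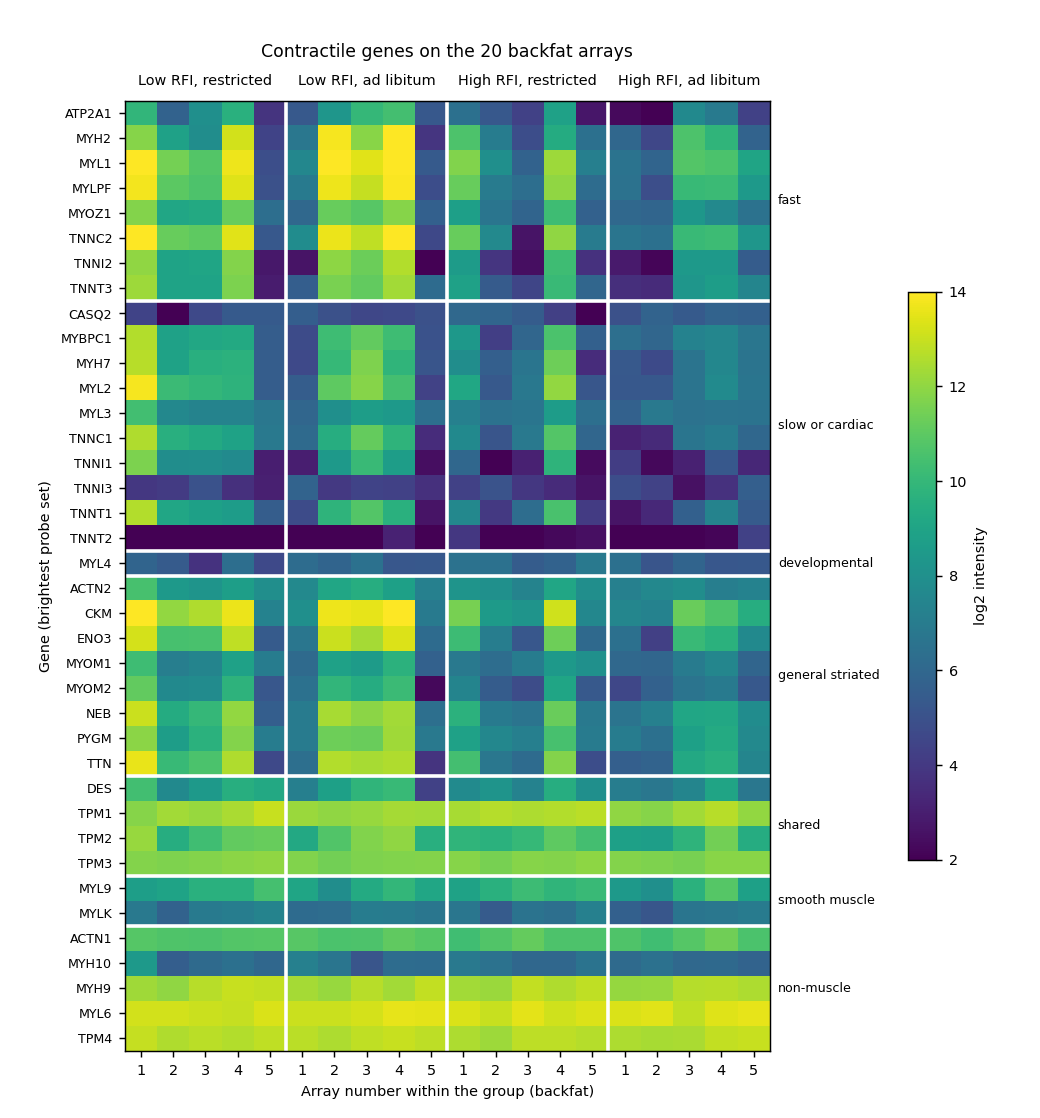
Log2 intensity of the 38 contractile genes, each through its brightest probe set, on the 20 backfat arrays, in columns by group and array number and in rows by class. Fast, slow and general striated genes are bright together on some arrays and dark on others, while TNNI3, TNNT2, CASQ2 and MYL4 stay dark throughout and the non-muscle genes other than MYH10 stay bright.

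Slow fibre genes were bright on overlapping but not identical arrays. MYL2, the regulatory light chain of slow fibres and ventricle, was at 14426, 1153, 1001, 862 and 46.2 on the low RFI restricted arrays, 45.9, 2066, 3577, 1368 and 20.5 on the low RFI ad libitum arrays, 566, 40.6, 113, 4281 and 36.5 on the high RFI restricted arrays and 39.5, 39.1, 97, 212 and 99.9 on the high RFI ad libitum arrays. Low RFI restricted array 1 stood far above the rest, followed by high RFI restricted array 4 and low RFI ad libitum array 3. MYH7, the slow and beta cardiac heavy chain, had 6682, 485, 752, 834 and 46.4 on the low RFI restricted arrays, 24.8, 1048, 3325, 927 and 35.3 on the low RFI ad libitum arrays, 237, 49.3, 102, 2618 and 11.3 on the high RFI restricted arrays and 41.1, 25.8, 98, 186 and 97.6 on the high RFI ad libitum arrays. The same 3 arrays led, and 9 arrays had MYH7 under the background threshold.

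TNNC1, the slow and cardiac troponin C, was at 6139.9, 755, 631, 479 and 115 on the low RFI restricted arrays, 70.4, 705, 2328, 908 and 11.4 on the low RFI ad libitum arrays, 210.1, 36, 115, 1769 and 61.7 on the high RFI restricted arrays and 8.87, 10.9, 101, 129.8 and 63.4 on the high RFI ad libitum arrays. TNNI1, the slow inhibitory subunit, was at 3218, 234, 243, 214 and 8.05 on the low RFI restricted arrays, 8.16, 350.5, 1114, 413 and 5.41 on the low RFI ad libitum arrays, 64.8, 3.65, 8.55, 895 and 5.13 on the high RFI restricted arrays and 17.9, 4.85, 8.65, 40.1 and 10.1 on the high RFI ad libitum arrays. The slow troponin subunits followed the slow myosin genes, with low RFI restricted array 1 on top for each of them. TNNT1 (slow troponin T) and MYBPC1 (the slow form of myosin-binding protein C) had 6345 and 6227 there, against 1501 and 1579 on high RFI restricted array 4. MYL3, the slow alkali light chain, had the narrowest range of the 7, from 52.1 on high RFI ad libitum array 1 to 1323 on low RFI restricted array 1. All 7 of these slow genes were brightest on low RFI restricted array 1.

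**Figure D2:**
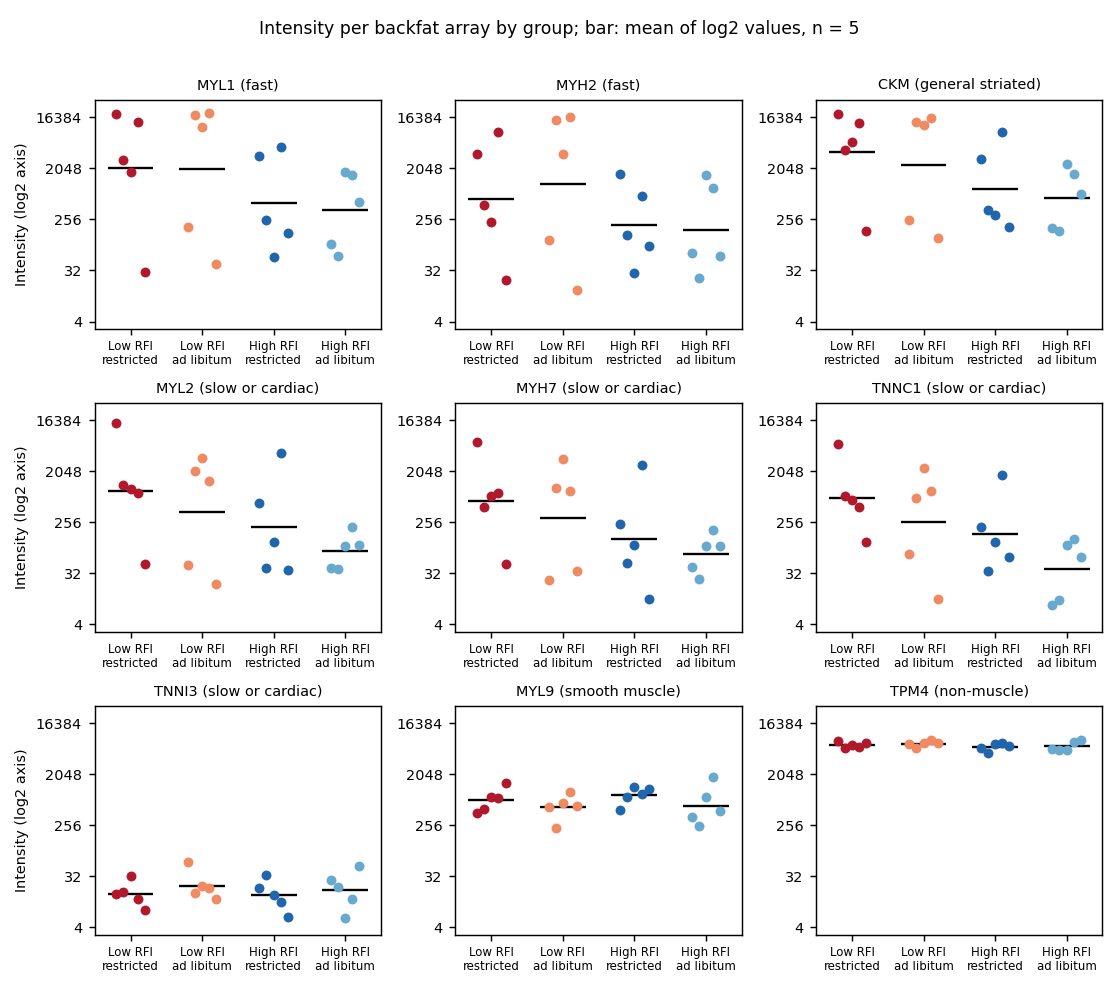
Intensity on a log2 axis of 9 contractile genes on each of the 5 backfat arrays of the 4 groups, with a bar at the mean of the log2 values. MYL1, MYH2, CKM, MYL2, MYH7 and TNNC1 spread widely within every group, and the groups overlap; TNNI3 is dim, MYL9 moderate and TPM4 bright in all 4 groups.

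Genes that all striated fibres use followed the same arrays. CKM, the muscle creatine kinase, had 19099, 4261, 6062, 12876 and 162 on the low RFI restricted arrays, 252, 13409, 11902, 16022 and 118 on the low RFI ad libitum arrays, 2975, 375, 300.4, 9091 and 188 on the high RFI restricted arrays and 184, 161, 2439, 1618 and 709.7 on the high RFI ad libitum arrays. It was the one striated gene over the background threshold on all 20 arrays apart from ACTN2, yet 6 arrays lay between 9091 and 19099 and 5 between 118 and 188. TTN, the giant spring protein titin, had 12252, 1092, 1546, 6159 and 25.2 on the low RFI restricted arrays, 84.5, 6203, 5514, 6097 and 13.9 on the low RFI ad libitum arrays, 1377, 107, 72.4, 3552 and 28.3 on the high RFI restricted arrays and 49.9, 56.1, 612, 752 and 175 on the high RFI ad libitum arrays. NEB, the thin filament ruler nebulin, had 8541, 674, 1005, 4215 and 48.3 on the low RFI restricted arrays, 129, 5543, 3825, 5092 and 82.3 on the low RFI ad libitum arrays, 838, 122, 98.7, 2478 and 115 on the high RFI restricted arrays and 97, 150.1, 552, 581 and 228 on the high RFI ad libitum arrays. For TTN and NEB, as for CKM, the 6 highest arrays were low RFI restricted 1 and 4, low RFI ad libitum 2, 3 and 4 and high RFI restricted 4.

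ENO3, the muscle enolase of glycolysis, reached 10674 on low RFI ad libitum array 4 and 9718 on low RFI restricted array 1, with 19.4 on high RFI ad libitum array 2 as its lowest value. PYGM, the muscle glycogen phosphorylase, peaked on low RFI ad libitum array 4 with 4939.5. The M-band proteins MYOM1 and MYOM2 peaked on low RFI restricted array 1, with 1258 and 2214, as did ACTN2, the alpha-actinin of the Z-disc, with 1447. Of the 8 general striated genes, 6 were brightest on low RFI restricted array 1 and 2, ENO3 and PYGM, on low RFI ad libitum array 4.

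The balance of slow to fast transcripts differed between pigs in which both classes were over background. Low RFI restricted arrays 1 and 4 differed by a mean of 0.23 on the log2 scale over the 8 fast genes (range -1.35 to 0.60, array 1 higher for 7 of 8), but by a mean of 3.57 over the 7 slow genes (range 3.0 to 4.06, array 1 higher for 7 of 7). In intensities, MYL1 had 18941 and 13359.8 on these 2 arrays, and MYL2 had 14426 and 862. Low RFI restricted array 1 differed from low RFI ad libitum array 4 by a mean of -0.44 over the fast genes (1 of 8 higher on array 1 of the restricted group) and of 2.75 over the slow genes (7 of 7 higher). MYH2 differed most among the fast genes in both pairs, at 3609 on low RFI restricted array 1, against 9165 on low RFI restricted array 4 and 16265 on low RFI ad libitum array 4. The pairs share 1 array and were picked after their values were seen, with 1 array on each side, and no test applies. Which muscle or fibre type the transcripts came from was not tested.

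**Figure D3:**
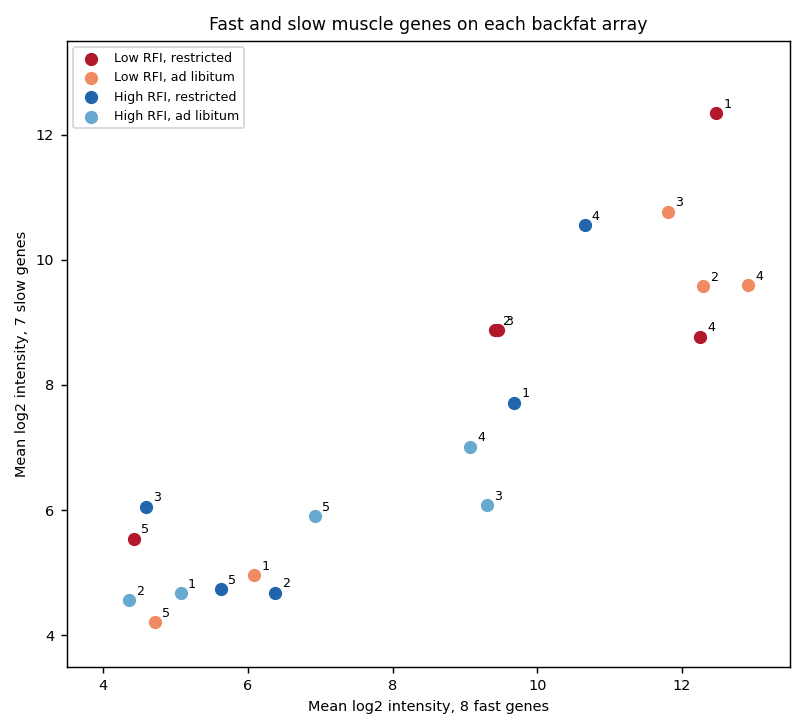
Mean log2 intensity of 7 slow genes against that of 8 fast genes on each of the 20 backfat arrays, coloured by group and numbered as in the titles. Low RFI restricted array 1, with means of 12.48 (fast) and 12.34 (slow), lies higher on the slow axis than low RFI restricted array 4, with 12.25 and 8.77.

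The heart forms of the same families stayed under background, where values have no order. TNNI3 and TNNT2, the cardiac troponin I and T, and CASQ2, the calsequestrin of heart and slow fibres, exceeded the background threshold on 0 of 20 backfat arrays. TNNI3 was at 15.6, 16.8, 32.4, 12.6 and 8.23 on the low RFI restricted arrays, where TNNT1, a protein-coding neighbour with none between them in the RefSeq annotation of the Sscrofa11.1 assembly, was at 6345, 546, 446, 400.4 and 47. TNNT2 and TNNI1, with 1 protein-coding gene between them in that annotation, differed in the same way: on low RFI restricted array 1 TNNI1 was at 3218 and over the threshold, and TNNT2 was at 1.4 and under it. The fast pair TNNI2 and TNNT3, with 2 genes between them, varied together. MYL4, the light chain of embryonic muscle and atrium, exceeded the threshold on 1 of 20 backfat arrays, high RFI restricted array 5, with 115.

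The 23 striated genes that passed the filter on dim probe sets (over the threshold on at least 5 of 20 backfat arrays) were counted on each array. Restricted low RFI arrays 1 to 5 had 23, 22, 23, 23 and 5 of them over background, and the low RFI ad libitum arrays had 8, 23, 23, 23 and 3. The high RFI restricted arrays had 21, 9, 6, 23 and 7, and the high RFI ad libitum arrays 5, 4, 16, 22 and 15. All 23 were over background on 6 of 10 low RFI arrays and 1 of 10 high RFI arrays, and on 4 of 10 restricted and 3 of 10 ad libitum arrays. Each group thus held both arrays with most of the genes over background and arrays with few. The mean log2 intensity of the 23 genes was 9.43 ± 2.59 in low RFI restricted, 8.96 ± 3.22 in low RFI ad libitum, 7.41 ± 2.22 in high RFI restricted and 6.74 ± 1.5 in high RFI ad libitum pigs (SD, n = 5 each).

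Members that fat has without striated muscle behaved differently. TPM4, a tropomyosin of non-muscle cells, was at 7972, 6071, 6873, 6281 and 7296 on the low RFI restricted arrays, 6918, 5961, 7441, 8247 and 7249 on the low RFI ad libitum arrays, 5967, 4909, 7127, 7222 and 6429 on the high RFI restricted arrays and 5811, 5525, 5621, 7652 and 8198 on the high RFI ad libitum arrays. MYL6, the non-muscle light chain, lay between 7290.3 and 11987 over the 20 arrays, and MYH9, the non-muscle heavy chain, between 4087 and 8073. The mean log2 intensity of the 4 non-muscle genes that passed the filter stayed within 12.04 to 12.60, against 4.89 to 12.35 for the 23 striated genes. MYH10, the other non-muscle heavy chain, exceeded the threshold on 3 of 20 arrays and was not tested. The level of MYH9 went with the array number in the titles: it lay between 4087 and 5276 on arrays numbered 1 and 2, and between 5117 and 8073 on arrays numbered 3 to 5.

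The smooth muscle members MYL9 and MYLK peaked on other arrays than the striated genes. MYL9, the regulatory light chain of smooth muscle, was at 421, 499, 797, 786 and 1421 on the low RFI restricted arrays, 531, 233, 644, 978 and 555 on the low RFI ad libitum arrays, 485, 797, 1211, 927 and 1130.1 on the high RFI restricted arrays and 361, 254, 802, 1834 and 454 on the high RFI ad libitum arrays. The 2 highest values were on high RFI ad libitum array 4 and low RFI restricted array 5, and low RFI restricted array 5 had 5 of 23 striated genes over background. ACTA2, the smooth muscle actin, was also highest on these 2 arrays, with 13494 and 13797. MYLK, the kinase that activates smooth muscle myosin, peaked on low RFI restricted array 5 with 163. Of the 10 smooth muscle and pericyte genes tested, 2 were highest on low RFI restricted array 1: DES, which striated fibres also make, and ACTG2, another smooth muscle actin, with 3708 against 1607 to 3571 on the other 19 arrays.

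Among the 4 shared genes, probe sets of the same gene followed different arrays. The brightest TPM1 probe set, for the alpha tropomyosin made in all muscle types, was highest on low RFI restricted array 5 with 8154, where a second TPM1 probe set had 2858. That second probe set was highest on low RFI ad libitum arrays 4 and 2 with 10931 and 9011, the arrays on which MYH2 was highest. One TPM2 probe set, for beta tropomyosin, had 6334, 584, 1138, 2359.6 and 103 on the low RFI restricted arrays, 89.3, 2750.1, 4417, 4321 and 85.6 on the low RFI ad libitum arrays, 514, 26.1, 111, 2078 and 65.4 on the high RFI restricted arrays and 48.9, 73.4, 597, 412 and 149.8 on the high RFI ad libitum arrays. It followed the striated genes. Another TPM2 probe set did so only in part, being highest on high RFI ad libitum array 4 with 2542. Next came low RFI ad libitum array 4 with 2235.5, an array bright in striated genes, and low RFI restricted array 5 with 2121. DES, the intermediate filament desmin, was at 1315 on low RFI restricted array 1 and 602 on low RFI restricted array 5, and at 20.1 on low RFI ad libitum array 5, its lowest. The transcript forms that each probe set reads were not resolved here.

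Low RFI backfat had higher fitted means for every tested striated gene, and none of these differences passed the test. Of the 10 low RFI pigs the CKM intensities had a lowest value of 118, a median of 8982 and a highest of 19099, against 161, 542 and 9091 in the 10 high RFI pigs. For MYL1 the lowest, median and highest were 29.5, 7018 and 19193 in low RFI pigs, against 54.8, 386 and 4898 in high RFI pigs. For TNNC1 they were 11.4, 668 and 6140 in low RFI pigs, against 8.87, 82.0 and 1769 in high RFI pigs. The lines overlapped for all 38 member genes.

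The line difference (low RFI minus high RFI, both diets weighted equally) was tested with limma over 15498 probe sets, of which 3, or 0.0194%, passed an adjusted p of 0.05 (Benjamini-Hochberg). Of 48 member probe sets tested, 0 passed. At an unadjusted p under 0.05 there were 24 of 48, all higher in low RFI, against 7.78% of all probe sets tested; since the members vary together over the arrays, these are not separate observations. The median log2 difference of the 23 striated genes was 2.19 (range 0.83 to 2.96, standard errors 0.31 to 1.56), with 23 of 23 positive, against -0.002 over all probe sets tested. By class, the median was 2.42 for the 8 fast genes, 2.22 for the 7 slow genes and 1.87 for the 8 general genes. CKM differed by 2.06 (SE 1.05, 95% interval -0.12 to 4.25, limma adjusted p = 0.671) and TNNI1 by 2.96 (SE 1.16, 95% interval 0.54 to 5.38, limma adjusted p = 0.512).

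The smallest adjusted p among the members in the line comparison, 0.331 by limma, belonged to the dimmer of the ACTN2 probe sets over all arrays, with a log2 difference of 1.59 (SE 0.48). The non-muscle and smooth muscle genes had narrower intervals around smaller differences: TPM4 differed by 0.14 (95% interval -0.06 to 0.33), MYL6 by -0.09 (-0.29 to 0.12) and MYL9 by -0.19 (-0.85 to 0.47). Within arrays numbered 1 and 2 the striated median for line was 3.42, and within arrays numbered 3 to 5 it was 1.26. Leaving out 1 array at a time kept it between 1.79, without low RFI restricted array 1, and 2.88, without low RFI ad libitum array 5. The 3' to 5' signal ratios of the actin and GAPDH controls, signs of RNA quality, gave no detected difference between the lines (exact permutation p = 0.86 and 0.593, two-sided, 10 arrays each, adjusted p = 0.86 and 0.844 over 6 such tests).

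**Figure D4:**
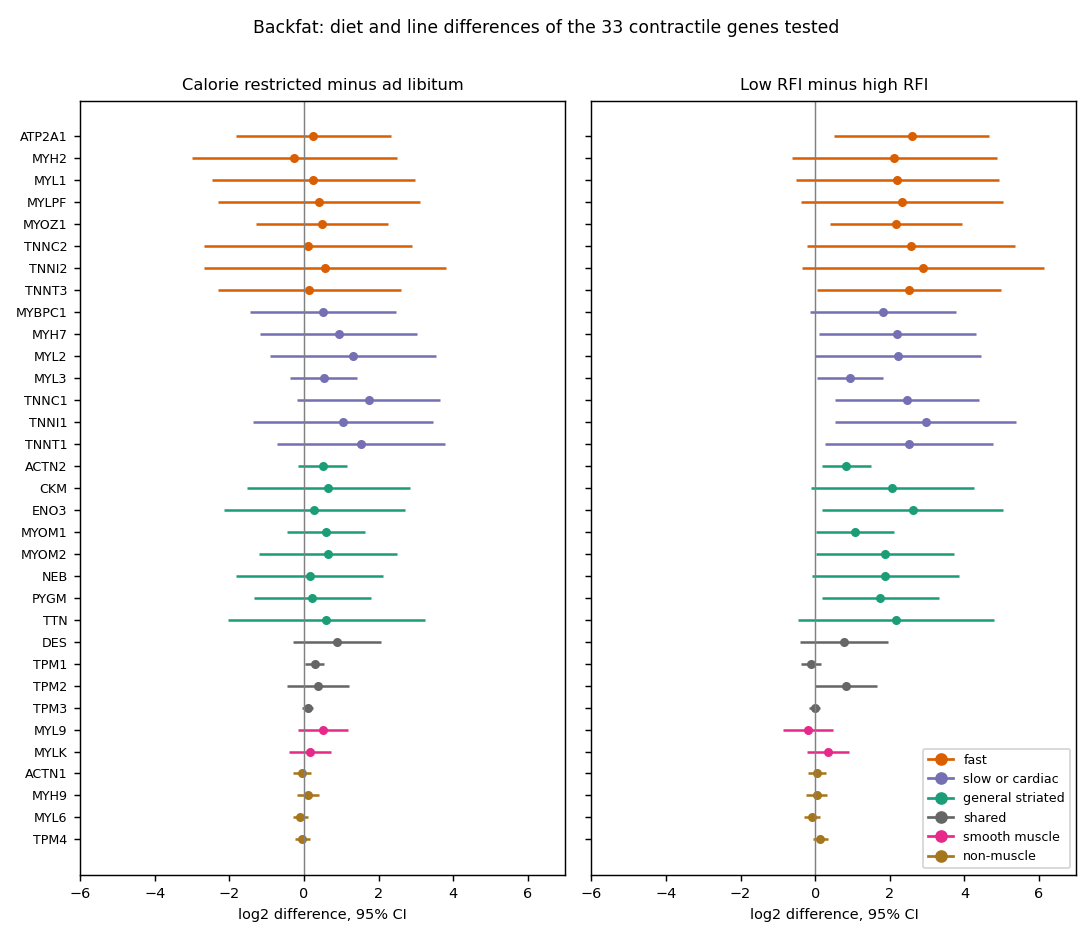
Log2 differences with 95% confidence intervals of the 33 contractile genes tested in backfat, each through its brightest probe set, for calorie restricted minus ad libitum (left) and low RFI minus high RFI (right), coloured by class. Striated genes have intervals several log2 units wide; all 23 lie right of 0 for line and 22 of 23 for diet, and no adjusted p passed 0.05 in either comparison.

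Restriction was not seen to move the contractile genes of backfat. CKM had a lowest value of 162, a median of 3618 and a highest of 19099 in the 10 restricted pigs, against 118, 1164 and 16022 in the 10 ad libitum pigs. For MYL1 the values were 29.5, 2348 and 18941 in restricted pigs, against 41.7, 1035 and 19193 in ad libitum pigs, and for MYH2 21.4, 347 and 9165 in restricted pigs, against 14.3, 516 and 16265 in ad libitum pigs. The diets overlapped for all 38 genes, and the order of the medians differed between MYL1 and MYH2.

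In the limma fit for diet, 25.8% of all probe sets tested passed the adjusted threshold, and 0 of 48 member probe sets did. At an unadjusted p under 0.05 there were 3 of 48, all higher with restriction, against 37.6% of all probe sets. These 3 were the dimmer ACTN2 probe set, with 1.12 on the log2 scale (SE 0.48, adjusted p = 0.0919), the brightest TPM1 probe set with 0.28 (SE 0.12, adjusted p = 0.103) and 1 TPM2 probe set with 0.22 (SE 0.10, adjusted p = 0.111). The median log2 difference of the 23 striated genes was 0.51, with 22 positive and 1 negative (MYH2), against 0.08 over all probe sets tested. It was 1.04 for the 7 slow genes and 0.25 for the 8 fast genes. TNNC1 had the largest of these differences, 1.73 (95% interval -0.20 to 3.65, limma adjusted p = 0.179), and MYH2 the lowest, -0.26 (95% interval -3.01 to 2.48, limma adjusted p = 0.908).

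The intervals of the striated genes were wide enough to hold large changes of either sign. The striated median for diet was 2.45 within arrays numbered 1 and 2 and -0.50 within arrays numbered 3 to 5, and it turned to -0.04 without low RFI ad libitum array 5. Without low RFI restricted array 5, which stood apart in hepatocyte markers, it was 0.95, and without low RFI restricted array 1 it was 0.19. The 3' to 5' ratio of the GAPDH control, a sign of RNA quality, moved with diet. On the log2 scale it was 1.88 ± 0.52 in restricted and 1.19 ± 0.37 in ad libitum pigs (SD, n = 10 each). That difference had an exact permutation p = 0.00365 (two-sided, adjusted p = 0.0109 over 6 tests). The actin ratio gave no detected difference by diet, at 1.895 and 1.796 (exact permutation p = 0.703, adjusted p = 0.844). The log2 array median differed, at 7.492 and 7.385 (exact permutation p = 0.00191, adjusted p = 0.0109). With the actin and GAPDH ratios as covariates the striated median was 2.55. In that fit 5 member probe sets, of ACTN2, DES, MYL3 and TPM1, passed the limma threshold as higher with restriction. The brightest TPM1 probe set was not among them, at 0.11 (SE 0.15, limma adjusted p = 0.658).

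The diet response did not differ detectably between the lines. In the limma test of that interaction, 0 of 15498 probe sets, or 0.0%, passed, and 0 of 48 member probe sets; 0 members and 1.57% of all probe sets had an unadjusted p under 0.05. The median interaction of the 23 striated genes was -0.17 on the log2 scale, with standard errors from 0.63 to 3.12. It had no stable sign, running from -1.15 without low RFI ad libitum array 5 to 0.83 without low RFI restricted array 5.

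Liver served as the other tissue measured on the same platform. By brightest probe set, 16 of the 27 striated genes were over background on 0 of its 20 arrays. Among these were MYL1, MYH2, MYLPF, TNNC2, TNNI2, TNNT3, MYL2, TNNC1, TNNT1, TTN, ENO3 and MYOM2. Others gave signal in liver through their brightest probe sets. ACTN2 and PYGM were over background on 20 of 20 liver arrays, MYOM1 and MYL4 on 19, MYL3 on 11, NEB on 10 and MYBPC1 on 9. Probe sets of the same gene differed here. The dimmer ACTN2 probe set was over background on 0 of 20 liver arrays, and the other PYGM probe sets on 12, 6 and 1. With the liver value on each array raised to that array's threshold where it was under it, backfat was at least 10.7-fold higher in MYL1, 8.29-fold in TNNC2, 7.94-fold in MYLPF, 6.36-fold in ENO3 and 5.25-fold in TTN, as means over 20 arrays. The same bound was at least 4.35-fold for MYH2, 3.17-fold for MYL2, 2.72-fold for TNNT3 and 2.06-fold for TNNC1. These means average over backfat pigs that differed widely, as described above.

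In the limma comparison of backfat with liver, fitted over all 40 arrays with no filter, 67.3% of 23999 probe sets passed, 42.0% higher and 25.4% lower in backfat. Of the 58 member probe sets, 46 passed as higher and 7 as lower in backfat. Many of these differences are set against values under background, so they were also computed with liver values raised to the array's threshold. Of the 46, 37 then had a backfat mean above that of liver, and 9 did not. Among the 9 were both ATP2A1 probe sets, TNNI1 and both CASQ2 probe sets, the last under background on all 40 arrays. Backfat values under the threshold were left as they were in that count. Raised in both tissues, the log2 differences were 1.21 and 0.56 for the ATP2A1 probe sets and 1.17 for TNNI1. CASQ2, at 0.25 for each probe set, then showed only the difference between the thresholds of the tissues. Counted by brightest probe set, 7 of 8 fast genes, 6 of 10 slow or cardiac genes and 7 of 8 general genes were called higher and stayed above the raised liver value, with class medians of 1.93, 0.57 and 2.04 on the log2 scale. CKM, over background on 20 backfat arrays and 1 liver array, passed (limma adjusted p = 7.07e-10) and differed by 4.09 with the liver values raised. MYL4 ran the other way (limma adjusted p = 4.98e-08), being over background on 1 of 20 backfat and 19 of 20 liver arrays, with a log2 difference of -0.48 once values under the threshold were raised to it in both tissues. Among non-muscle genes TPM4 was higher in backfat by 1.16 and ACTN1, the non-muscle alpha-actinin, lower by a log2 difference of -0.25; TPM3 differed by -0.32 through its brightest probe set and by 0.26 as a mean over its probe sets.

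**Figure D5:**
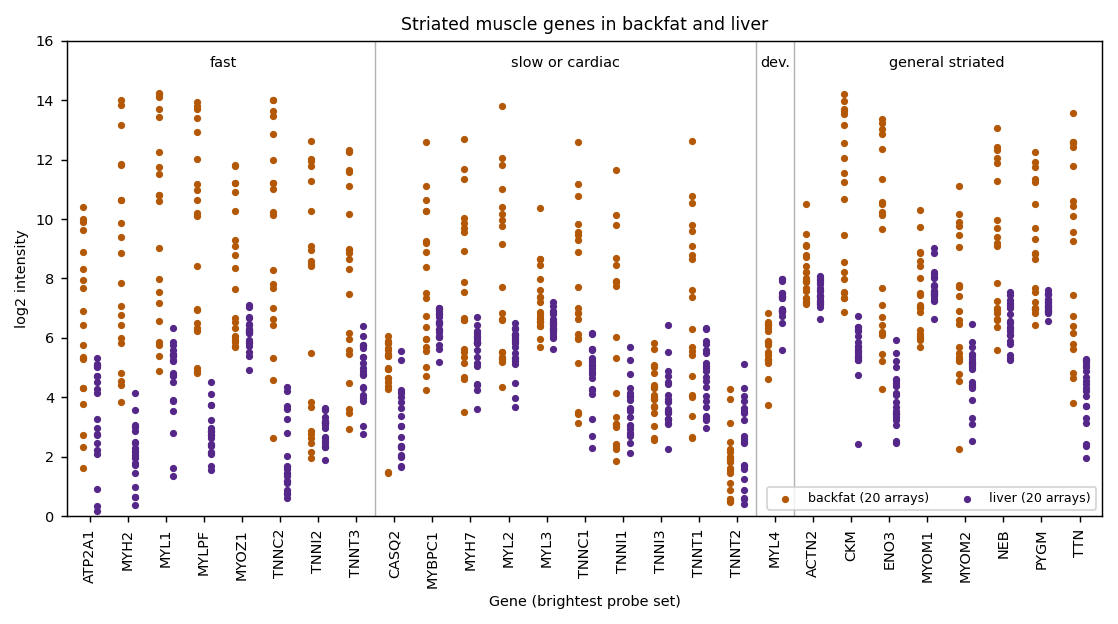
Log2 intensity of the 27 striated genes, each through its brightest probe set, on the 20 backfat (left points) and 20 liver arrays (right points), by class. Backfat points of fast, most slow and most general genes run from the liver range upward, TNNI3 and TNNT2 overlap in the 2 tissues, and MYL4 is higher in liver.

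Some backfat arrays overlapped liver for most striated genes. Of the 23 striated genes, the number above every one of the 20 liver arrays was 23, 22, 22, 22 and 5 on low RFI restricted arrays 1 to 5 and 9, 22, 22, 23 and 4 on the low RFI ad libitum arrays. It was 22, 8, 6, 22 and 7 on the high RFI restricted arrays and 7, 5, 17, 19 and 12 on the high RFI ad libitum arrays. CKM and MYLPF exceeded the highest liver value, 107 and 22.7, on all 20 backfat arrays. CKM was over background on 20 of these arrays, but MYLPF on only 14. TNNC2 exceeded its highest liver value on 19 of 20, among them low RFI ad libitum array 5 at 24.1. That value is under the array's background threshold. MYOM1 exceeded its highest liver value of 521 on 2 backfat arrays, low RFI restricted array 1 with 1258 and low RFI ad libitum array 4 with 849.

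Within liver no member passed for either factor. In the limma fits of the 20 liver arrays 0 of 28 member probe sets passed for diet and 0 of 28 for line, against 0.919% and 0.0447% of the 15677 probe sets tested, and 0 members in either fit had an unadjusted p under 0.05, against 12.4% and 6.53%. The 8 striated genes that passed the filter in liver had median log2 differences of -0.04 for diet and -0.01 for line. The diet difference in backfat minus that in liver passed for 0 of 58 member probe sets in limma, against 5.45% of all probe sets; 3 members had an unadjusted p under 0.05, against 17.0%.

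Muscle genes outside the naming rule were followed through 4 lists. Of 19 listed genes of calcium handling and excitation, 5 were measured and 4 tested. SLN, the small inhibitor of the calcium pump, was at 8074, 853, 645, 6145 and 99.2 on the low RFI restricted arrays, 164, 8569, 2959, 7530.3 and 95.3 on the low RFI ad libitum arrays, 803, 135, 89.8, 1389.7 and 109 on the high RFI restricted arrays and 70.5, 77.3, 400.2, 419.7 and 206 on the high RFI ad libitum arrays. These were the arrays on which MYL1 was high, and SLN had a line difference of 2.48 (SE 0.91, limma adjusted p = 0.453). ATP2A2, the calcium pump of slow and many other cells, reached 6834 on low RFI restricted array 1, and lay between 1568 and 3413 on the other 19.

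Of 38 listed accessory genes of the sarcomere and Z-disc, 25 were measured and 19 tested, and 12 of the 19 were brightest on low RFI restricted array 1. For line, 0 passed and 10 had an unadjusted p under 0.05, 9 of them higher in low RFI, against 7.78% of all probe sets, with a median log2 difference of 0.80. For diet, 1 was called higher and 1 lower, against 25.8% called of all probe sets. FHL1, a LIM protein of muscle that fat also carries, rose by 0.26 (SE 0.07, limma adjusted p = 0.00783), and CRYAB, a small heat shock protein of muscle and other tissues, fell by 1.01 (SE 0.24, limma adjusted p = 0.00453). FHL1 was highest on low RFI restricted array 1, but it stayed between 13728 and 20752 on all 20 arrays, a narrow range beside the striated genes. CRYAB did not follow the contractile genes and was highest on high RFI ad libitum array 5 with 5096.

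Of 26 listed energy enzymes and carriers of muscle, 19 were measured and 18 tested. For diet, 2 were called higher and 5 lower, against 25.8% called of all probe sets; the 3 with the smallest p were PPP1R1A, an inhibitor of protein phosphatase, which fell by 0.93, FABP3, a fatty acid carrier, which fell by 0.29, and CPT1B, the muscle form of the mitochondrial fatty acyl transferase, which rose by 0.97 (limma adjusted p = 0.00212, 0.0232 and 0.0313). FABP3 was bright on every array, from 17468 to 31695, while CPT1B was between 34.5 and 238. For line, 0 of the 18 passed in limma and 3 had an unadjusted p under 0.05, against 7.78% of all probe sets. LDHA, lactate dehydrogenase, was highest on low RFI ad libitum arrays 4 and 2 with 15364 and 12861, arrays also high in fast genes, and differed by line by 0.71 (SE 0.27, limma adjusted p = 0.474).

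Of 22 listed myogenic regulators and receptors, 9 were measured and 4 tested. CHRNA1, a subunit of the acetylcholine receptor of the nerve-muscle junction, was at 3949.8, 265, 304, 198 and 165 on the low RFI restricted arrays, 2350.3, 372, 1986, 1337 and 1393 on the low RFI ad libitum arrays, 145, 326, 316, 414 and 211 on the high RFI restricted arrays and 434, 525, 2039, 681 and 776 on the high RFI ad libitum arrays. It fell by 1.58 on the log2 scale with restriction (SE 0.47, limma adjusted p = 0.0175), with low RFI restricted array 1 as the exception among the restricted arrays. CHRNA1 was also high on low RFI ad libitum array 1, where 8 of 23 striated genes were over background. MEF2A, a transcription factor of muscle and many other cells, was between 812 and 1739 and differed by diet by 0.30 (SE 0.11, limma adjusted p = 0.0543).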

How the data were processed

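Liver and backfat RNA of 20 pigs was measured on 40 arrays. The authors deposited linear intensity per probe set; the submitters' processing notes name affy and MAS5 without version or role, and the background and summary steps are not given in the sources used here. Trimmed means (2% from each end) were 500.09 to 500.15, so no scaling was added, and array medians were 127.3 to 191.2. Of 24123 probe sets, 124 controls were left out; the platform annotation gave 198 several symbols and 13732 none. All 38 member symbols matched current RefSeq names. Depth does not apply to arrays; their number limits precision.

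Log2 values without offset were fitted with limma 3.58.1 (R 4.3.3), group means, eBayes with intensity trend, Benjamini-Hochberg at 0.05. In each tissue, probe sets had to exceed the array's 40th percentile on at least 5 of 20 arrays; tissue comparisons used all 23999. A gene was taken through its probe set with the highest mean log2 intensity over the backfat arrays; 13 genes had several, and 48 of 58 member probe sets (33 genes) were tested in backfat, 28 in liver. Every striated member could be named; of other members, those past a threshold and the brightest; of each list, called genes with the 3 smallest p-values and the 3 brightest. SLN, FHL1, CRYAB and the other list genes named follow that rule.

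The members and lists, and the split of arrays by number, were chosen with earlier results of these data known. Pigs are not identified across tissues, and labels call the arrays separate samples of a group. The array numbers were not used to pair samples. The fits were tried on simulated data with independent noise, each probe set at its own spread. They recovered 83.7% of randomly drawn probe sets changed by 1 log2 unit for line and 87.8% for diet. The mean of the 23 striated genes had a within-group SD of 2.46 log2 units, and these genes vary together. The recovery rates therefore do not apply to them. Alternatives were normalization, filters, offset, variance trend, replicate block, array numbers, leaving out each array, probe set choice, and, added after seeing the data, control ratios as covariates.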

Additional observations from a re-analysis of the deposited data

Results flagged for a closer look

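Of 132 groups of 5 backfat arrays checked (4 groups for each of 33 genes), 3 held an outlying array. On the log2 scale its distance from its nearest neighbour exceeded 0.71 of the group's range, Dixon's critical value for 5. Chance alone gives about 1 in 20, a larger share than 3 of 132. MYL3, the slow alkali light chain, was at 1323 on low RFI restricted array 1, and the nearest of the other 4 arrays was at 197. The same gene was at 52.1 on high RFI ad libitum array 1, where the nearest of the others was at 93.0, both under the background threshold or close to it. TPM3, a tropomyosin of slow fibres and non-muscle cells, was at 2800.5 on low RFI ad libitum array 2, against 3319 on the nearest of the others.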

How the results depend on the processing

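The count of members called for diet in backfat, 0, was 1 (TPM1) with quantile normalization and 5 with the actin and GAPDH ratios as covariates, an alternative chosen after seeing the data. Leaving out single arrays gave 0 to 1, with 1 each without low RFI restricted array 1 (TPM1), low RFI ad libitum array 3 (ACTN2) and high RFI ad libitum array 4 (TPM1). For tissue by diet it was 1 (TPM1) with quantile normalization and 0 to 1 with arrays left out. The count of members that differed between backfat and liver, 53, was 24 of 25 tested with the 40th percentile required in both tissues and 14 of 15 with the 60th, where genes dim in liver no longer enter. As means over probe sets, MYH9 turned to -0.45 (0.36 by its brightest) and TPM3 to 0.26 (-0.32 by its brightest). These means take in dim probe sets. The dimmer MYH9 probe set was over background on 0 backfat and 12 liver arrays, and the dimmest TPM3 probe set on 9 and 1. Why probe sets of the same gene differ was not tested. The line, interaction and both liver counts of members stayed 0 under each alternative run. Same-numbered arrays of different groups deviated together from their group means more than differently numbered ones (median r 0.202 against -0.055 in backfat, 0.183 against -0.076 in liver), a hint from the data that numbers mark something shared. The labels name nothing that a number stands for, 23 of 30 backfat and 26 of 30 liver pairs exceeded an r of 0.1, and 12 of 20 backfat and 13 of 20 liver arrays correlated best with their own number, so pairing was not settled. With the replicate number as a block (replicate block), members called numbered 0 for diet, 0 for line and 0 for their interaction in backfat, 0 in both liver fits and, with a correlated block, 53 between tissues and 0 for tissue by diet. Groups of 5 arrays limit what could be detected, and values under background have no order.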
